A study of Homo sapiens with 4 samples.

Results

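The aminoacyl-tRNA synthetases were followed after siRNA treatment against PATZ1, a zinc finger transcription factor also known as MAZR. The cells were labelled HepG2, a human liver cancer line. The set was chosen by name: every cytosolic or mitochondrial synthetase gene of the platform (a 1-letter amino acid code with ARS, ARS1 or ARS2, the bifunctional EPRS1, and FARSA and FARSB, the subunits for phenylalanine) and the scaffold genes AIMP1, AIMP2 and EEF1E1 of the multi-synthetase complex. It holds 40 genes. Of these, 35 were among the 20045 genes with a probe named here, and 34 were among the 9435 genes tested: 16 cytosolic synthetases, 16 mitochondrial synthetases, and GARS1 and KARS1, which serve both compartments from 1 gene. CARS1, AIMP2 and EEF1E1 were among the genes not analysed here, since the annotation used names no probe for them, and the only probe of AIMP1 was not detected, with signals of 81.1 and 79.6 on the siPATZ1 arrays and 70.2 and 78.1 on the siCTRL arrays. The question was whether synthetase transcripts differed after PATZ1 depletion, and whether the cytosolic and the mitochondrial enzymes differed alike.

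RNA was hybridised to 4 Illumina HumanHT-12 v4 arrays, a bead array that measures each transcript with 1 or a few probes. siPATZ1-treated cells (2 arrays) received 60 pmol of an siRNA against PATZ1, and siCTRL-treated cells (2 arrays) received 60 pmol of a scrambled siRNA. Both groups were reverse transfected with Lipofectamine RNAiMax and harvested after 48 h, and otherwise were the same unmodified line. The study speaks of duplicates, and no source used here tells whether the arrays of a group stem from different cultures. The p-values therefore rest on array-to-array spread, part or all of which may be technical.

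Aminoacyl-tRNA synthetases charge each tRNA with its amino acid and so set the genetic code in the cytosol and, with a mostly separate set of nuclear-encoded enzymes, in mitochondria. They fall into catalytic classes I and II, which have unrelated folds, and several cytosolic enzymes are held with the AIMP scaffold proteins in a multi-synthetase complex. Uncharged tRNA is sensed by the kinase GCN2, which phosphorylates eIF2 alpha and lets the transcription factor ATF4 be translated, and many genes of cytosolic synthetases are known ATF4 targets.

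The arrays had a mean signal of 523 and 555 (siPATZ1) and 503 and 492 (siCTRL), and between 14222 and 15980 probes, out of 47323, counted as detected (detection p-value under 0.01). None of the 3 PATZ1 probes was detected on any array (lowest detection p-value 0.0649), so the arrays do not check the knockdown. Of 26 hepatocyte markers with a probe, 6 were detected on all 4 arrays and 19 on none. ALB, KRT8, KRT18, CPS1, FOXA1 and FOXA2 were detected. AFP, APOA1, APOB, TTR, TF, SERPINA1, FGA, FGB, FGG, AHSG, CDH1 and EPCAM were among those that were not. ALB had deposited signals of 165 and 194 (siPATZ1) and 202 and 157 (siCTRL). The median of undetected probes was between 82.8 and 88.6 on the 4 arrays. Of the markers of other cell types, 1 of 13 leukocyte, 2 of 14 fibroblast and stellate and 0 of 10 endothelial genes were detected on all 4 arrays. They were CD68, ACTA2 and VIM, and VIM had signals of 7491 and 7235 (siPATZ1) and 5194 and 5892 (siCTRL). The name HepG2 is taken from the sample labels. With 19 of 26 hepatocyte markers detected on no array, the markers do not bear that name out, and the identity of the line was not tested. Values below are log2 signals after background correction and quantile normalization, and differences are siPATZ1 minus siCTRL with n = 2 arrays per group throughout.

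None of the 34 synthetase genes was called between siPATZ1- and siCTRL-treated cells at an adjusted p under 0.05 by limma, the moderated linear model run across all 9435 genes, whereas 14.7% of all genes tested were called, 7.76% as higher and 6.94% as lower. None reached the 1.4-fold threshold that the study names, which 16.1% of all genes tested reached. All 34 were detected on all 4 arrays, and among the 8547 genes detected on all 4 arrays 13.0% were called and 13.7% reached 1.4-fold. At an unadjusted p under 0.05 there were 6 synthetase genes, all higher in siPATZ1-treated cells, beside 31.1% of all genes in either direction (15.8% higher, 15.3% lower). By the methods' t-test 7 synthetase genes had an unadjusted p of at most 0.05 beside 19.8% of all genes tested, and 0 passed after Benjamini-Hochberg adjustment, when 1 gene of 9435 (0.0106%) did. The median log2 fold change of the 34 genes was 0.05, between -0.29 for WARS2 and 0.41 for LARS2, and their SD was 0.20, beside a median of -0.00082 and an SD of 0.37 over all genes tested, 29.3% of which lay outside the range of the synthetases. For 17 of the 34 genes the 95% interval of the difference lay inside 1.4-fold in both directions, as it did for 40.0% of all genes tested. For the other members the arrays do not bound the difference that tightly, and an adjusted p over the threshold does not show that their levels were alike.

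**Figure D1:**
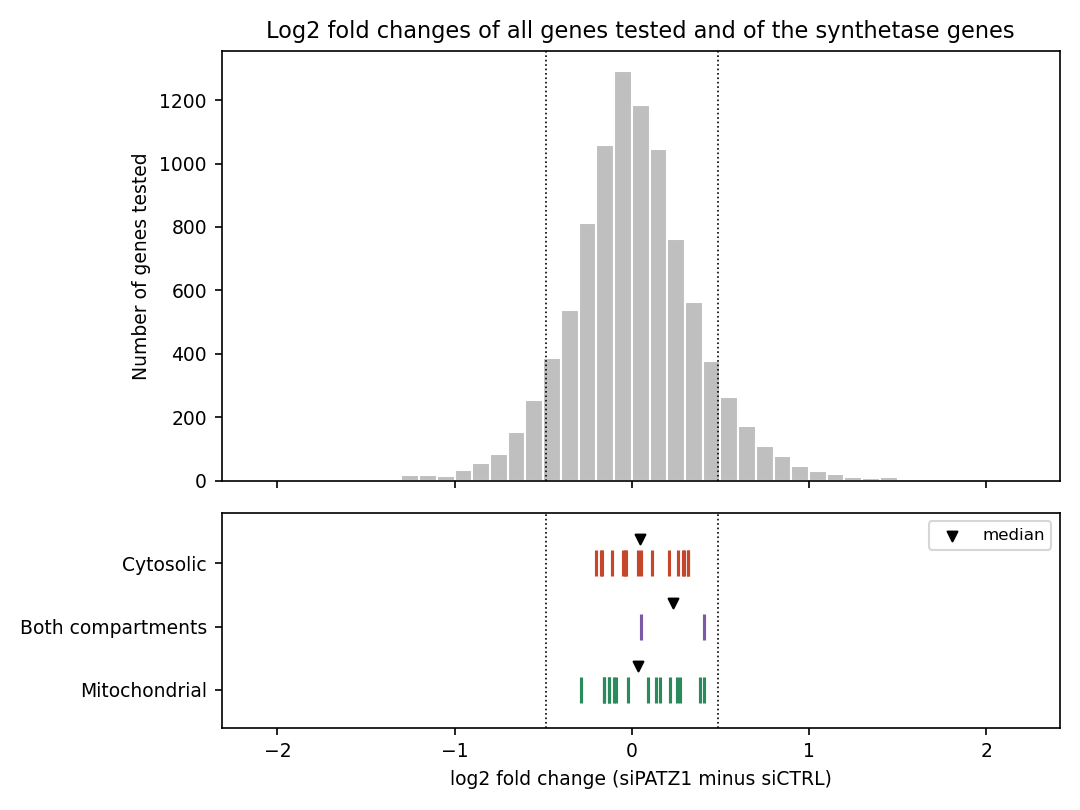
Upper panel, number of genes tested against their log2 fold change (siPATZ1 minus siCTRL) in bins of 0.1. Lower panel, each synthetase gene as a vertical bar by compartment with the class median as a triangle; dotted lines mark 1.4-fold. All 34 synthetase genes lie inside the dotted lines, between -0.29 and 0.41.

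KARS1 came closest to the threshold. It encodes lysyl-tRNA synthetase, a class II enzyme and member of the multi-synthetase complex that also serves mitochondria. Its log2 signal was 9.20 and 9.25 on the siPATZ1 arrays, against 8.77 and 8.86 on the siCTRL arrays. The deposited signals before normalization were 684 and 731 for siPATZ1, against 475 and 495 for siCTRL. Both siPATZ1 arrays lay above both siCTRL arrays, and the difference was 0.41 (SE 0.12, adjusted p = 0.061 from limma), or 1.33-fold. Over 17 other settings its adjusted p ranged between 0.0171 and 0.331, and it was called in 6 of them, 1 of which left out siCTRL replicate 2 (adjusted p = 0.049). GARS1, glycyl-tRNA synthetase, had 11.20 and 11.02 with siPATZ1 and 11.14 and 10.98 with siCTRL. Its groups overlapped, with a difference of 0.05 (SE 0.13).

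Among the 16 cytosolic synthetases, 9 differences were positive and 7 negative, with a median of 0.04. The siPATZ1 arrays lay above both siCTRL arrays for 7 of them and below both for 2. Over all genes tested, 30.1% had both siPATZ1 arrays above and 29.9% had both below, and for the 34 synthetase genes the counts were 12 and 4. SARS1, seryl-tRNA synthetase, had 9.86 and 9.84 in siPATZ1-treated cells, against 9.60 and 9.52 in siCTRL-treated cells, a difference of 0.29 (SE 0.12, adjusted p = 0.14 from limma). AARS1, alanyl-tRNA synthetase, had 12.09 and 11.99 with siPATZ1, against 11.75 and 11.76 with siCTRL, a difference of 0.29 (SE 0.12, adjusted p = 0.15). In both genes the arrays of a group lay closer to each other than to the other group, and neither was called.

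HARS1, histidyl-tRNA synthetase, had 10.93 and 10.92 in siPATZ1-treated cells, against 10.48 and 10.74 in siCTRL-treated cells. The difference was 0.32 (SE 0.13, adjusted p = 0.16), and the spread lay in the siCTRL arrays. NARS1, asparaginyl-tRNA synthetase, had 12.30 and 11.94 with siPATZ1, against 11.74 and 11.86 with siCTRL, a difference of 0.32 (SE 0.15, adjusted p = 0.20). Here the spread lay in the siPATZ1 arrays. MARS1, methionyl-tRNA synthetase of the complex, and YARS1, tyrosyl-tRNA synthetase, followed with 0.26 and 0.21 and no overlap between groups. EPRS1, which joins glutamyl- and prolyl-tRNA synthetase in 1 protein, had 0.11 (SE 0.12).

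On the negative side, LARS1, leucyl-tRNA synthetase and the known leucine sensor of the TORC1 pathway, had 9.88 and 10.18 with siPATZ1, against 10.26 and 10.21 with siCTRL, a difference of -0.20 (SE 0.14, adjusted p = 0.37). RARS1, arginyl-tRNA synthetase, was the other cytosolic gene with both siPATZ1 arrays below both siCTRL arrays, by -0.11. TARS1, for threonine, and FARSB, the beta subunit for phenylalanine, each had a difference of -0.17 and overlapping groups. For FARSA, the alpha subunit that forms a tetramer with FARSB, it was -0.05. QARS1, VARS1, IARS1 and WARS1 lay between -0.04 and 0.05, and each had overlapping groups.

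The mitochondrial synthetases had 8 positive and 8 negative differences, with a median of 0.03. LARS2, mitochondrial leucyl-tRNA synthetase, had the largest difference of all members. Its log2 signal was 8.22 and 8.13 on the siPATZ1 arrays, against 7.57 and 7.96 on the siCTRL arrays, a difference of 0.41 (SE 0.16, adjusted p = 0.12 from limma). The 2 siCTRL arrays differed by nearly as much as the groups, and without siCTRL replicate 2 the difference was 0.61 (adjusted p = 0.022). TARS2, mitochondrial threonyl-tRNA synthetase, had 7.44 and 7.49 with siPATZ1, against 7.08 and 7.08 with siCTRL. The groups were well apart, by 0.38 (SE 0.12, adjusted p = 0.068).

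CARS2, for cysteine, had 8.57 and 8.62 in siPATZ1-treated cells, against 8.34 and 8.31 in siCTRL-treated cells, a difference of 0.27 (SE 0.12, adjusted p = 0.17). PARS2, for proline, and YARS2, for tyrosine, had 0.26 and 0.21 with overlapping groups. FARS2, for phenylalanine, was the fourth mitochondrial gene with both siPATZ1 arrays above, by 0.13. WARS2, mitochondrial tryptophanyl-tRNA synthetase, had 7.95 and 8.10 with siPATZ1, against 8.38 and 8.24 with siCTRL. Its difference of -0.29 (SE 0.13, adjusted p = 0.17) was the lowest of all members. NARS2, for asparagine, was the other mitochondrial gene with both siPATZ1 arrays below, by -0.15 (SE 0.12). The remaining 8 genes lay between -0.16 for EARS2 and 0.16 for IARS2, all with overlapping groups.

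**Figure D2:**
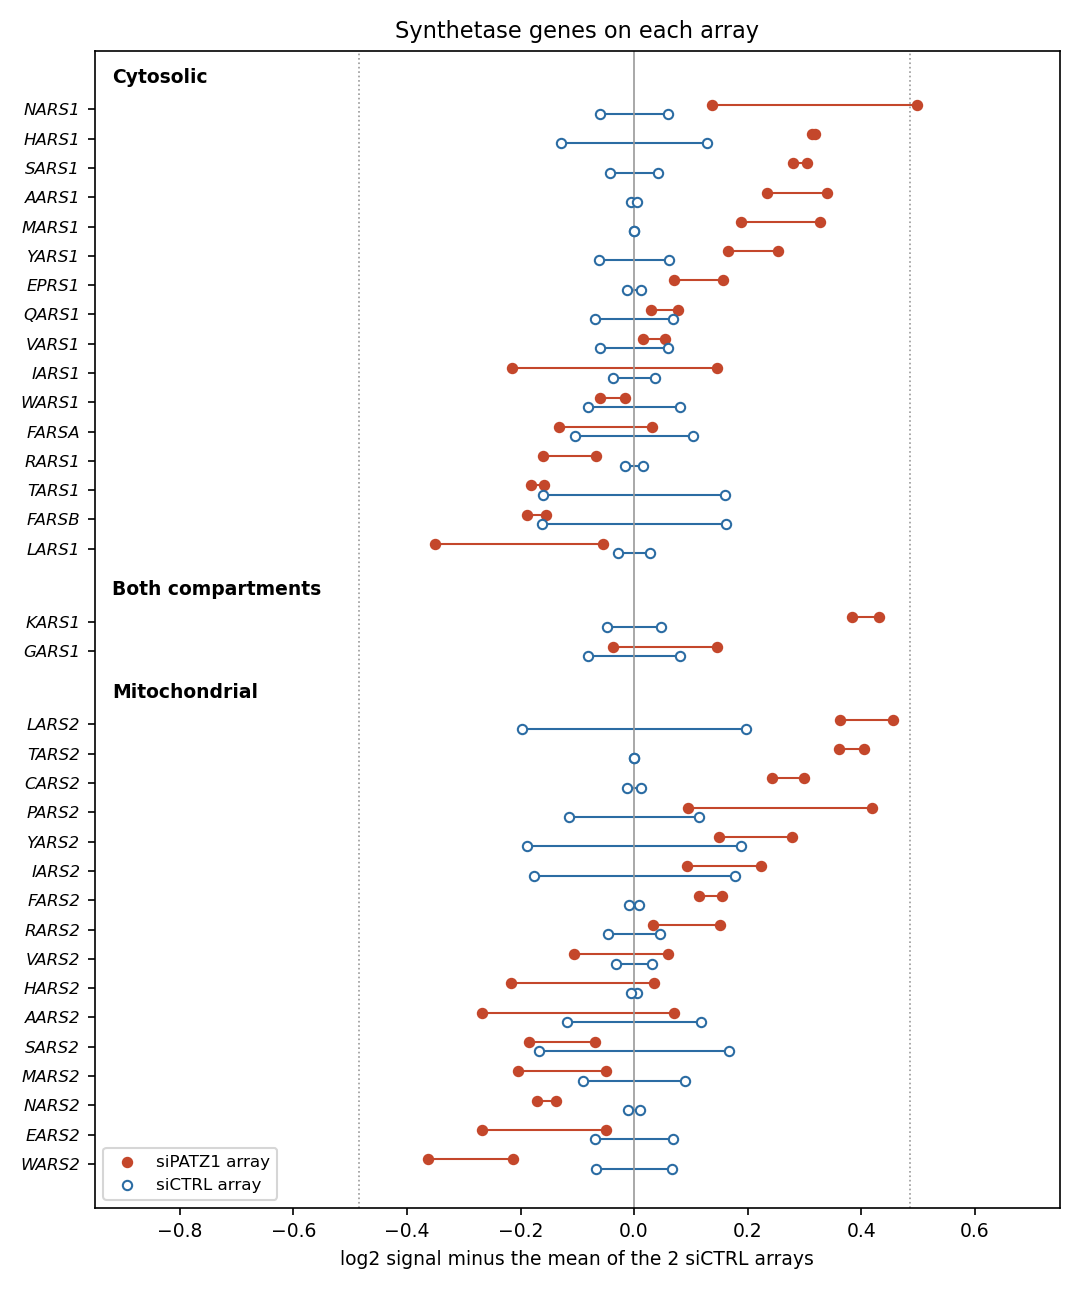
Each synthetase gene on each array, as log2 signal minus the mean of its 2 siCTRL arrays; filled points are siPATZ1 arrays, open points siCTRL arrays, lines join arrays of a group, and dotted lines mark 1.4-fold. KARS1, TARS2, SARS1 and AARS1 show groups that are narrow and apart, while LARS2 and HARS1 have siCTRL arrays that lie apart from each other.

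The median log2 fold changes of the cytosolic and the mitochondrial enzymes differed by 0.01. Without siCTRL replicate 1 this difference was 0.101 and without siPATZ1 replicate 2 it was 0.0654. Taken array by array, the gap between class medians of signals centred on each gene's mean had an SD of 0.048 within groups. That gap is another quantity, so its SD does not measure the spread of the difference of 0.01. With median scaling, which moved the median of all genes by 0.12, the class medians were 0.17 (cytosolic) and 0.19 (mitochondrial). The members of a class are not replicates, and the classes were therefore described and not tested. Within amino acids the signs of the 2 differences were compared. Over all genes tested, 4702 differences were positive and 4733 negative, and the share of opposite signs among unrelated gene pairs was not computed. For 13 of 16 pairs of a cytosolic and a mitochondrial enzyme (EPRS1 and FARS2 stand in more than 1 pair) the 2 differences had opposite signs, and over all 16 pairs the cytosolic one was the larger in 8. In 4 of these 13 pairs both differences exceeded their own SE. For leucine the values were -0.20 for LARS1 and 0.41 for LARS2. For threonine they were -0.17 for TARS1 and 0.38 for TARS2. For phenylalanine they were -0.17 for FARSB, whose second probe was detected on no array, and 0.13 for FARS2. For asparagine the order was turned, with 0.32 for NARS1 and -0.15 for NARS2. Tyrosine, tryptophan and proline had the same sign in both compartments. In each pair the difference between compartments was set against the arrays by an exact permutation test, two-sided, in which 2 arrays against 2 allow no p below 0.333. That value was reached by 12 of the 16 pairs (adjusted p = 0.444), so this test cannot reach 0.05 here and says nothing on whether the compartments differed. The sign count also rests on small values near 0: it was 7 of 16 with median scaling in place of quantile normalization.

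**Figure D3:**
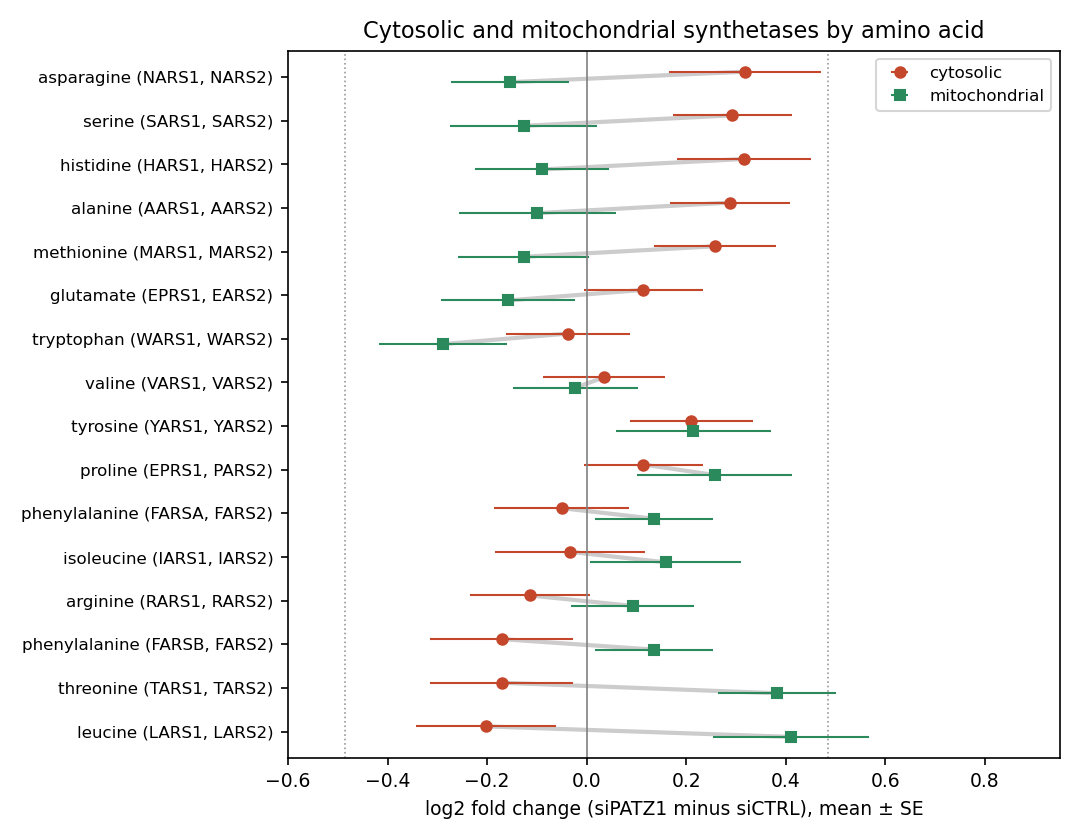
Log2 fold change (siPATZ1 minus siCTRL, points) with its SE (bars) for the cytosolic and the mitochondrial synthetase of each amino acid, ordered by their difference; dotted lines mark 1.4-fold. Asparagine is at the top, with 0.32 for NARS1 and -0.15 for NARS2, and leucine at the bottom, with -0.20 for LARS1 and 0.41 for LARS2.

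The histidine pair is encoded head to head. In RefSeq (GRCh38.p14) the first bases of HARS1, on the minus strand, and HARS2, on the plus strand, lie 85 bases apart, and the stretch is shown because both genes start from it. It is chr5:140691370-140691455, on the plus strand, with the first base of each gene in capitals, HARS1 at the left end and HARS2 at the right end.
HARS1-HARS2: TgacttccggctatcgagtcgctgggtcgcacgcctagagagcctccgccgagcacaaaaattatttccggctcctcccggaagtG
HARS1 had a difference of 0.32, while HARS2 had 9.44 and 9.69 on the siPATZ1 arrays, against 9.66 and 9.65 on the siCTRL arrays, a difference of -0.09 (SE 0.13). The siPATZ1 arrays of HARS2 lay on both sides of the siCTRL arrays.

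Members of the multi-synthetase complex (7 tested: EPRS1, IARS1, KARS1, LARS1, MARS1, QARS1 and RARS1) had a median of 0.05, as did the 11 other enzymes of the cytosol, GARS1 included. In the complex 3 genes had both siPATZ1 arrays above (EPRS1, KARS1 and MARS1) and 2 had both below (LARS1 and RARS1). Over all genes tested, 30.1% had both above and 29.9% both below. Among enzymes that are not purely mitochondrial, the 9 of class II had a median of 0.29 and the 8 of class I a median of 0.00, with EPRS1, which carries both classes, left out. KARS1, NARS1, HARS1, SARS1 and AARS1 make up the upper part of class II, and FARSA, TARS1 and FARSB had negative values in the same class. The gap between these class medians was 0.29. It was between 0.12 and 0.29 when 1 array was left out, the lowest value being that without siPATZ1 replicate 1. An SD of 0.072 within groups was found for the array-by-array gap between catalytic class medians of signals centred on each gene's mean. That array-by-array gap is another quantity, so its SD does not measure the spread of the gap of 0.29. With the mitochondrial enzymes included the medians were 0.09 for the 16 of class II and 0.04 for the 17 of class I. The classes are groups of related genes, not replicates, and no test was made of the gap of 0.29.

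Several probes of 1 gene were compared for FARSB, IARS1, MARS2, VARS1 and WARS1. In all, 40 probes matched a member, 35 were kept and 0 of these were called when all probes were fitted together. For WARS1, whose interferon-inducible product is tryptophanyl-tRNA synthetase, both probes were detected and gave -0.04 (SE 0.13) and -0.02 (SE 0.12). For FARSB, IARS1, MARS2 and VARS1 the second probe was detected on no array. For FARSB the probe used had deposited signals of 24454 and 26071 with siPATZ1 and 24126 and 30082 with siCTRL, and its other probe had signals of at most 89.6 with siPATZ1 and 80.2 with siCTRL, although both are annotated to the same transcript. The probe of EARS2 is annotated to a noncoding transcript of that gene.

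The C/EBP-ATF response element, through which ATF4 acts on many genes of amino acid metabolism, was searched as TGATGNAA on both strands, in promoter windows of 250 bases before to 50 after each gene start from RefSeq (GRCh38.p14). At least 1 window was given for 33 of the 40 genes. The element was found in 8 of these 33 (24.2%), 6 of them cytosolic and 1 mitochondrial with GARS1 besides, and in 4.46% of all 27305 genes with a window. The sites of the tested genes are shown with 10 bases on either side, 5′ to 3′ along the gene and with the element or its reverse complement in capitals, since they can be set beside each gene's value.
AARS1 (chr16:70289676-70289703, minus strand): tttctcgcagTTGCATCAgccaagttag
GARS1 (chr7:30594835-30594862, plus strand): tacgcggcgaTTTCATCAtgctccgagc
IARS1 (chr9:92293693-92293720, minus strand): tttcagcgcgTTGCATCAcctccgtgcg
MARS1 (chr12:57488054-57488081, plus strand): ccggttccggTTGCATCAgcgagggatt
NARS1 (chr18:57621805-57621832, minus strand): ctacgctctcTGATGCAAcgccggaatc
TARS1 (chr5:33440957-33440984, plus strand): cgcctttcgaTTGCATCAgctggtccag
YARS2 (chr12:32756077-32756104, minus strand): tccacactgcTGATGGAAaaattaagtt
The differences of these 7 genes lay between -0.17 (TARS1) and 0.32 (NARS1), with a median of 0.21. The 22 tested genes with a window that lacks the element lay between -0.29 and 0.41, with a median of 0.07. Both ranges cross 0, and KARS1, LARS2 and TARS2, which had the largest differences, are among the genes without it. The sequence GGGGAGGTG, a stretch that the study names in the CDKN1B promoter, was in no window of the 33 genes and in 2.0% of all genes.

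Genes that work with the synthetases were taken from 10 lists, which held 223 genes, 182 of them tested. Of these, 9 rose and 13 fell with siPATZ1, 12.1% together, against 14.7% of all genes, and the calls lay in 8 of the 10 lists. The methods' t-test gave 42 of the 182 at an unadjusted p of at most 0.05, beside 19.8% of all genes, and 0 after adjustment. EIF5A2 and POLR3D passed the detection filter only through the group where they are higher, which favours their direction, and they support nothing on their lists. Every one of the 22 called genes kept its sign under each other setting that tested it. The number of calls changed when 1 array was left out, in the lists and over all genes. Such a fit has 1 array in a group and fewer degrees of freedom. A call lost in it does not show that the call rests on 1 array.

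Of 13 tested genes of stress kinases, their target eIF2 and TORC1 signalling, 2 were lower and 0 higher. The share called was 15.4%, beside 14.7% of all genes tested. EIF2S1, the alpha subunit of eIF2 and target of the stress kinases, had 7.93 and 8.04 in siPATZ1-treated cells, against 9.11 and 9.22 in siCTRL-treated cells. It was lower, with a difference of -1.18 (SE 0.12; limma, adjusted p = 0.0028), and it stayed called without any 1 of the 4 arrays. EIF2AK4, which encodes GCN2, had 9.24 and 9.26 with siPATZ1, against 9.95 and 9.85 with siCTRL, a difference of -0.65 (SE 0.12; limma, adjusted p = 0.015). RRAGD and RRAGC, GTPases of amino acid signalling to TORC1, had -0.31 and -0.28 and were not called.

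Of 31 genes of the ATF4 and amino acid response, 3 were higher and 1 lower (12.9%, beside 14.7% of all genes tested). The list had a median of 0.11. CTH, cystathionine gamma-lyase of cysteine synthesis, had 7.42 and 7.18 in siPATZ1-treated cells, against 6.75 and 6.65 in siCTRL-treated cells. The difference was 0.59 (SE 0.13, adjusted p = 0.027 from limma). The other probes of CTH were not kept, 1 being detected on 1 array and 1 on none. ALDH18A1, of proline synthesis, rose by 0.57 and DDIT3, the stress factor CHOP, by 0.48, with adjusted p of 0.032 and 0.035. STC2, the secreted stanniocalcin, had -0.48 (adjusted p = 0.035). ATF4 itself had 0.09 (SE 0.12) and ASNS, asparagine synthetase and a standard ATF4 target, 0.11 (SE 0.12), and neither was called. Each of the 4 calls was lost without at least 2 of the 4 arrays, 1 left out at a time.

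In the supply of tRNA, 4 of 19 genes of RNA polymerase III were called (21.1%, beside 14.7% of all genes tested), 2 in each direction. POLR3G and POLR3GL are alternative subunits of the same polymerase. POLR3G had 8.33 and 8.21 with siPATZ1, against 9.08 and 9.12 with siCTRL, a difference of -0.83 (SE 0.12; limma, adjusted p = 0.0076). Another detected probe of POLR3G gave -0.10 (SE 0.18) and was not called, so its probes disagree. POLR3GL had 9.82 and 9.81 with siPATZ1, against 9.18 and 8.86 with siCTRL, a difference of 0.80 (SE 0.14; limma, adjusted p = 0.013). POLR3B, the second largest subunit, was lower by -0.62 (SE 0.12, adjusted p = 0.016). POLR3D, which was detected on the siPATZ1 arrays only, had 0.47 and was not called when all probes were fitted together (adjusted p = 0.059).

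Of 20 genes of tRNA processing and export, POP1 and POP5 were higher, by 0.65 and 0.59, and RPP38 and RPP14 lower, by -0.54 and -0.52. All 4 encode proteins of RNase P or the related RNase MRP, which trim the 5′ end of tRNA precursors and process other RNAs. POP1 had 7.41 and 7.47 in siPATZ1-treated cells, against 6.82 and 6.77 in siCTRL-treated cells. RPP38 had 6.03 and 6.26 with siPATZ1, against 6.73 and 6.64 with siCTRL, and its second probe was detected on no array. XPOT, the tRNA export receptor, had 0.49 (SE 0.20) and was not called.

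Of 39 genes of tRNA modification, 1 was higher and 3 lower (10.3%, beside 14.7% of all genes tested). TP53RK, a kinase of the KEOPS complex that modifies tRNAs that read codons starting with A, had 8.18 and 8.17 with siPATZ1, against 8.84 and 8.84 with siCTRL, a difference of -0.67 (SE 0.12; limma, adjusted p = 0.013). TRMU, the mitochondrial tRNA thiouridylase, had -0.67 and TRIT1, the isopentenyl transferase, -0.48. ELP3, the catalytic subunit of the Elongator complex that modifies wobble uridines, was higher by 0.63 (SE 0.13, adjusted p = 0.021).

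Downstream of charging, EIF5A2, a hypusine-containing translation factor, was the only one called of 9 elongation factors (11.1%, beside 14.7% of all genes tested). It had a difference of -1.03 (SE 0.14, adjusted p = 0.0059 from limma). It was detected on both siCTRL arrays and 1 siPATZ1 array, and so entered the test through the group where it is higher. A second probe of EIF5A2 was detected on no array. EEF1D, a subunit of the exchange factor that reloads the carrier of charged tRNA, had 0.25, EEF2K, the kinase of the translocase EEF2, had 0.35 and EEF2 had -0.17, and none of these was called. Of 14 mitochondrial translation factors 1 was called (7.14%, beside 14.7% of all genes tested). It was GUF1, a GTPase of the mitochondrial ribosome, which was higher by 0.57 (SE 0.13, adjusted p = 0.026 from limma). MTRF1L and GFM1, a release and an elongation factor, had -0.28 and -0.27, MTFMT, which formylates the initiator tRNA, had 0.30, and none of these was called. Of 9 synthetase relatives and editing enzymes none was called by limma. At an unadjusted p under 0.05 there was 1, beside 31.1% of all genes tested. TARS3, a threonyl-tRNA synthetase gene whose symbol falls outside the naming rule, was that gene. It had 0.36 (SE 0.15) and was detected on the siPATZ1 arrays only, so that it entered the test through the group where it is higher. PSTK and SEPHS2 of selenocysteine synthesis had 0.42 and 0.20, and SECISBP2, which binds selenocysteine elements, had -0.20.

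WARS1 is a known interferon target and several synthetase genes are known MYC targets, and both lists were read for that reason. Of 11 interferon genes tested, ISG15, a ubiquitin-like modifier, averaged 7.10 ± 0.17 in siPATZ1-treated cells and 8.06 ± 0.080 in siCTRL-treated cells (SD), a difference of -0.96 (SE 0.14; limma, adjusted p = 0.0066). IFI35 had -0.49 (SE 0.12, adjusted p = 0.034), and IFIT1 and IFITM3 had -0.46 and -0.42. The 11 genes lay between -0.96 and -0.02, with a median of -0.18, and the remaining 9 were not called. The share called was 18.2%, beside 14.7% of all genes tested. WARS1 had -0.04. Of 18 growth-related MYC targets none was called by limma, and the list had a median of 0.09. At an unadjusted p under 0.05 there were 3, beside 31.1% of all genes tested. CAD, of pyrimidine synthesis, had 8.43 and 8.32 with siPATZ1, against 7.43 and 8.12 with siCTRL, so that the siCTRL arrays lay far apart, and a difference of 0.60 (SE 0.21, adjusted p = 0.10). MYC itself had 0.31 (SE 0.12, adjusted p = 0.13), FBL, the nucleolar fibrillarin, 0.30 and HSPD1, a mitochondrial chaperonin, 0.25.

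**Figure D4:**
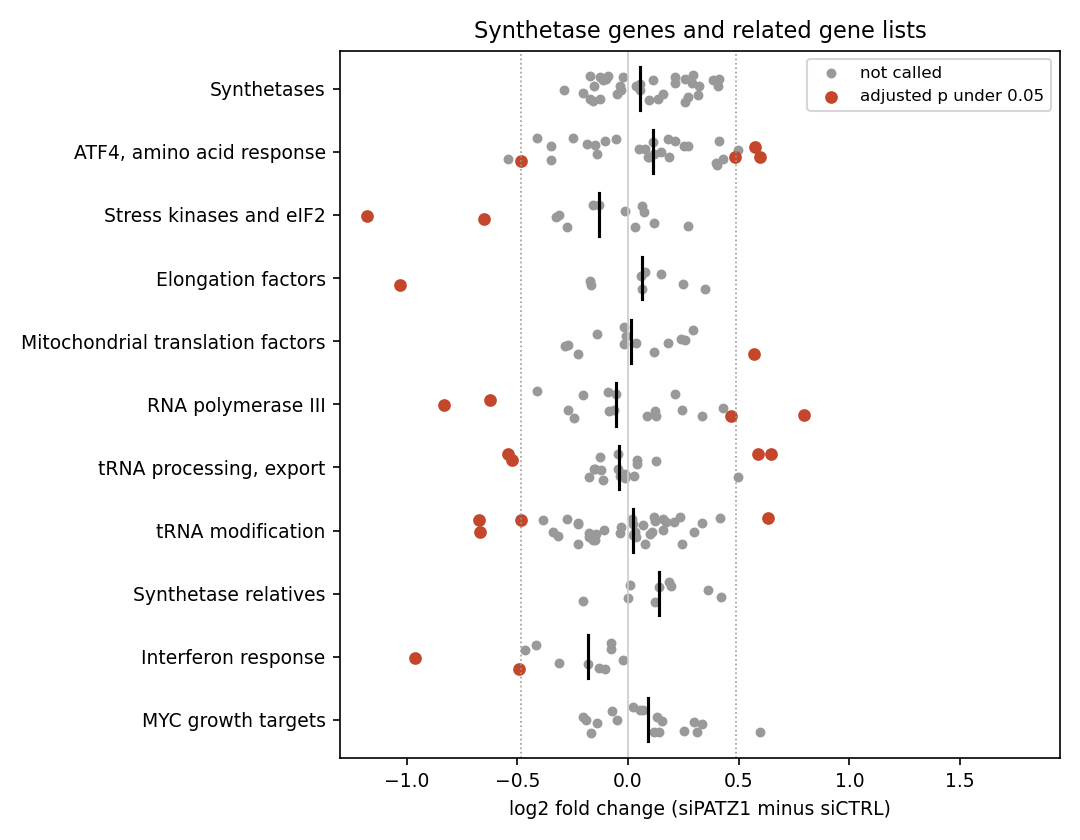
Log2 fold change (siPATZ1 minus siCTRL) of each tested gene of the synthetase set and of 10 related lists; red points had an adjusted p under 0.05, black bars are list medians, dotted lines mark 1.4-fold and the vertical scatter has no meaning. The synthetases have no red point, while EIF2S1 (-1.18), EIF5A2 (-1.03, not detected on all arrays) and ISG15 (-0.96) lie farthest to the left.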

How the data were processed

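The authors deposited raw bead intensity for each probe (linear, neither background-corrected nor normalized), next to it a detection p-value that ranks the probe against its array's negative controls, and a further table in which intensity was multiplied by 1 factor per array to give equal means. GenomeStudio is the tool named in the submitters' processing notes. No per-sample column was left unused.

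The unscaled intensities were processed in limma 3.58.1 (R 4.3.3): normexp background correction from the detection p-values with an offset of 16, quantile normalization and log2. A probe was kept (15090 of 47323, 11986 with 1 gene) where siPATZ1, siCTRL or both had it at a detection p-value below 0.01 on each of their arrays. A gene was its brightest kept probe. Gene names came from the platform annotation and were updated through RefSeq (GRCh38.p14). Differences were fitted with lmFit and eBayes (2 residual and 5.73 prior degrees of freedom) and adjusted by Benjamini-Hochberg over 9435 genes. The fit was tested on simulated data.

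Every member is accounted for, and of each related list the 4 genes with the smallest p, or all that passed, were named first; others named, such as ATF4, ASNS and XPOT, were chosen after their values were seen. The members and lists were chosen with earlier results of these data known. Some genes of the set are not reported here. Compartments, catalytic classes and the complex were assigned from textbook knowledge. Alternatives were other background corrections, normalizations, detection filters, probe rules and tests, a replicate block, and leaving out each array. The number of arrays limits the precision.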

Additional observations from a re-analysis of the deposited data

How the results depend on the processing

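Over 17 other settings, 22 of the 34 synthetase genes kept the sign of their difference, 15 higher and 7 lower, and 29 of 578 values had the other sign. Depending on the setting 0 to 4 synthetase genes were called. One was called, KARS1, without background correction, with a normexp offset of 50 and with an intensity trend and robust prior. With median scaling 4 were called (KARS1, LARS2, SARS1 and TARS2) and 3 reached 1.4-fold; that scaling moved the median of all genes by 0.12, and calls over all genes were 1338 higher and 382 lower, against 732 and 655 in the main analysis. With the deposited scaled intensities 3 were called (HARS1, KARS1 and SARS1), with 1130 higher and 640 lower over all genes. By the methods' t-test 7 had an unadjusted p of at most 0.05, beside 1870 of all genes (19.8%). Leaving out 1 array gave 0 to 2 calls, KARS1 and LARS2 without siCTRL replicate 2, and 0 to 1 genes past 1.4-fold. Over probes, calls of members were 1 without background correction, 2 with median scaling, 3 with the deposited scaled intensities, 1 with an intensity trend, 7 by the unadjusted t-test and 0 to 1 without 1 array. Opposite signs within an amino acid numbered 7 of 16 with median scaling. The gap between cytosolic and mitochondrial medians lay between -0.0219 and 0.101 without 1 array. The gap between members of the complex and other cytosolic enzymes was -0.0014 in the main analysis, -0.0226 with median scaling and between -0.0417 and 0.0175 without 1 array. The gap between classes II and I lay between 0.12 and 0.29 without 1 array. In the related lists 22 calls became 14 at a detection p under 0.05, 4 with no detection filter, 0 by the t-test after adjustment, 42 by the unadjusted t-test and 2 to 33 without 1 array. Over all genes 1387 calls became 337 with no detection filter, 1 by the t-test after adjustment and 193 to 1911 without 1 array; they were 205 without siPATZ1 replicate 1 and 193 without siPATZ1 replicate 2. The cause of these changes was not tested. Where 1 array was left out, the lone array of its group was assumed to vary like the other group. Replicate numbers do not pair the arrays by the labels, and deviations of same-numbered arrays correlated at -0.067; with a replicate block 0 synthetase genes, 16 genes of the related lists and 1069 of all genes were called. Results over probes were not run for the other rules that choose a gene's probe, since all probes are used there.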
